A study of Mus musculus with 62 samples.

Results

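GABA-A receptors are the chloride channels through which most fast inhibition in the forebrain acts, and the 7 genes described here, Gabra2, Gabra3, Gabra4, Gabra5, Gabrb1, Gabrb2 and Gabrd, encode 7 of their subunits. They were chosen by name and not by a rule on measured values, although earlier results of these data were known. Each was found as 1 row of both deposited count tables, so all 7 members were present among the 27179 genes of each table. The libraries came from E17.5 forebrain of euploid (n = 8) and Ts65Dn (n = 7) embryos, for which the labels give no sex, and from the hippocampus of 6-week-old mice. The adult animals were male euploid (n = 8), male Ts65Dn (n = 7), male Ts65Dn;Brwd1+/- (n = 8), and females of the same genotypes (n = 8 each). Ts65Dn mice carry an extra chromosome segment, with an extra copy of the mouse counterparts of many human chromosome 21 genes, Brwd1 among them. In the Ts65Dn;Brwd1+/- mice a Brwd1 mutant allele from the father brings the number of working Brwd1 copies back to that of euploid mice, while the other genes of the segment stay triplicated. The labels give all mice a DBA/2J x B6EiC3Sn/J background, and the study's rescue animals came from Ts65Dn mothers and Brwd1+/- fathers.

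A GABA-A receptor is a pentamer, usually built of alpha, beta and gamma or delta subunits, and the alpha subunit largely sets where the receptor sits and which drugs it binds. The alpha2 subunit is typical of synapses on the axon initial segment, alpha3 is prominent in the immature forebrain, and alpha5, which is enriched in the hippocampus, serves extrasynaptic receptors of pyramidal cells. Alpha4 and delta form extrasynaptic receptors that carry tonic inhibition in dentate granule cells, and the beta subunits provide part of the GABA binding site. Excess inhibition has been proposed for Ts65Dn mice, so the question asked of these counts was whether the transcripts of these subunits differed with trisomy, and whether they differed again where Brwd1 copy number was restored.

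None of the 7 genes lies on the triplicated segments. In GRCm38, Gabra2 (chr5:70958392-71095849), Gabra4 (chr5:71569734-71658308) and Gabrb1 (chr5:71657921-72149572) form a cluster in which Gabra4 on the minus strand and Gabrb1 on the plus strand overlap head to head. Gabra5 is at chr7:57407669-57591016. The libraries do not mark strand, so reads from overlaps between neighbouring genes cannot be assigned to 1 gene with certainty. Gabrb2 is at chr11:42419515-42632591, Gabra3 at chrX:72432676-72656919 and Gabrd at chr4:155384979-155398098. The sequences just before the transcript starts, which show how different the start regions of genes of 1 receptor family are, were taken from RefSeq promoter windows of GRCm38.p6. They are written along each gene's strand with exonic bases left out, and capitals mark matches to any of 3 motifs on either strand. The GC box was searched as GGGCGG. The letters TATAAA stood for the TATA motif. The last motif was the CCAAT box, searched by the letters of its name. The windows are chr5:71095850-71096099 for Gabra2, chrX:72656920-72657169 for Gabra3, chr5:71658364-71658558 for Gabra4, chr7:57510060-57510309 for Gabra5 and chr11:42420190-42420439 for Gabrb2. Gabra3 and Gabrb2 have further start sites whose windows are not shown, and those of Gabrb1, which are shorter, are not shown either. The Gabra5 and Gabrb2 windows lie inside the gene spans given above, so sequence before the outer 5' ends of these spans is not shown.
Gabra2: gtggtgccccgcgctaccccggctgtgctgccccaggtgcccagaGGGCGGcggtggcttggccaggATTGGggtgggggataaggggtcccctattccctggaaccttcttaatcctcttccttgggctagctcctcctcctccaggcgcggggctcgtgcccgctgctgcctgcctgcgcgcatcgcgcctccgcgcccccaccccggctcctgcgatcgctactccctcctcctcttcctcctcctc
Gabra3: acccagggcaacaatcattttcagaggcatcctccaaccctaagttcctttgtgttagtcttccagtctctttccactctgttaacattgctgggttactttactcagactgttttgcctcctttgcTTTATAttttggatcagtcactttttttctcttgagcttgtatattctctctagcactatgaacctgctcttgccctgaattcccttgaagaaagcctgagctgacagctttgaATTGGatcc
Gabra4: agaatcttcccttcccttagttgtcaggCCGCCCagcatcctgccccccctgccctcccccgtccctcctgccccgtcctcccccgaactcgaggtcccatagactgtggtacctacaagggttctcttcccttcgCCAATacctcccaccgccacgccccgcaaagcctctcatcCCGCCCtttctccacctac
Gabra5: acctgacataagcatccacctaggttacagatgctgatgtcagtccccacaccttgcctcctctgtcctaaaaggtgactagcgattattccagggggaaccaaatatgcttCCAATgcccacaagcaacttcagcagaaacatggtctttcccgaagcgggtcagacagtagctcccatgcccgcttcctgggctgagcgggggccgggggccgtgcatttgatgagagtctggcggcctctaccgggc
Gabrb2: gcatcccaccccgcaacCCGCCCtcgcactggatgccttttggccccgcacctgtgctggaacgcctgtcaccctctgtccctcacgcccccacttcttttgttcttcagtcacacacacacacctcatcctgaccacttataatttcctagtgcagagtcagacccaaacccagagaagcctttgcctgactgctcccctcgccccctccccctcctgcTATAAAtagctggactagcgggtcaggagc
The Gabra2 window had a GC content of 70.0%, the Gabra4 window 63.6%, the Gabrb2 window 58.8%, the Gabra5 window 56.4% and the Gabra3 window 42.4%, where the median of 32851 promoter windows of 250 bases was 52.4%. GC boxes, which bind Sp family factors, were found in the windows of Gabra2, Gabra4 and Gabrb2, and in 32.7% of all promoter windows. A TATA box on the gene's own strand stood 30 bases before the end of the Gabrb2 window, and 1 on the opposite strand was found before Gabra3, where 12.4% of all windows held this motif. CCAAT boxes were found in the windows of Gabra2, Gabra3, Gabra4 and Gabra5, and in 33.8% of all windows. No window printed here held the core of the cyclic AMP response element, searched as TGACG and present in 17.8% of all windows, or the E-box CACGTG, present in 6.02%. No 2 of the matches overlap, and a match or its absence describes only the letters of the window.

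The count tables held 14.9 to 62.6 M counts per E17.5 library (median 28.5 M) and 33.6 to 137.1 M per adult library (median 49.5 M), so every member except Gabrd at E17.5 (5 to 150 counts per library) rested on at least 124 counts in each library. The mean Brwd1 level, on the log2 scale of CPM (a gene's counts scaled to a fixed library total), was 7.52 ± 0.07 (SD) in E17.5 euploid and 8.08 ± 0.11 in E17.5 Ts65Dn forebrain. For the adult male groups (euploid, Ts65Dn, Ts65Dn;Brwd1+/-) the means were 6.76 ± 0.11, 7.28 ± 0.20 and 7.03 ± 0.26, and for the female groups 6.87 ± 0.28, 7.36 ± 0.11 and 7.09 ± 0.26. However, 4 adult libraries labelled trisomic (male Ts65Dn B145, male Ts65Dn;Brwd1+/- T35 and B138, female Ts65Dn;Brwd1+/- B136) had a median log2 ratio of triplicated genes to euploid between 0.00015 and 0.038, and 2 (female euploid B85, male Ts65Dn B88) had sex-linked transcripts of the other sex. Values without these 6 libraries are given beside several of the results they move. Among others, they are not given for the Brwd1 means above, the male Gabrd differences or the sex interactions. In Brwd1 level, B145, B138 and B136 were each the lowest library of their group, and T35 was the next lowest of its group. In addition, female euploid B125 and female Ts65Dn;Brwd1+/- B176 had low levels of genes with long exons (described with the covariation of the subunits), and values without this pair are given where it mattered. All libraries are bulk tissue, so fewer cells of a type and less RNA per cell cannot be told apart. The labels give adult libraries different animal numbers and E17.5 libraries different sample numbers. The E17.5 titles also hold 1 of 2 further numbers, each shared by embryos of both genotypes, and do not say what these mark or whether embryos came from separate litters. By sex-linked transcripts (Ddx3y above Xist), E17.5 euploid replicates 3 and 6 and Ts65Dn replicates 1, 2 and 7 were male, and the other embryos female. A fit with Ddx3y expression as a term also called no member.

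To compare the subunits with each other, levels were expressed as CPM per kb of exon. In adult hippocampus Gabra5 was the highest of the 7 in all 6 groups, with group means of 59.0 to 67.8, and it was above Gabrb2 (37.5 to 44.4) in every library. Gabra2 (17.2 to 21.5), Gabra4 (16.9 to 18.8) and Gabra3 (12.7 to 16.9) followed. The ranges of Gabra2 and Gabra4, and of Gabra4 and Gabra3, overlapped in every group, and those of Gabra2 and Gabra3 in every group but Ts65Dn;Brwd1+/- males, where each Gabra2 value was above each Gabra3 value. Gabrd (7.69 to 10.7) overlapped Gabra3 in 5 of 6 groups and was in every library above Gabrb1 (2.08 to 2.65), the lowest. In E17.5 forebrain the order differed. Gabra3 was the highest member (28.1 ± 4.57 in euploid and 29.4 ± 4.07 in Ts65Dn, SD), above Gabra5 in every library, while Gabra5 (21.2 and 21.7) and Gabrb2 (20.9 and 21.5) exchanged places between libraries. Gabra2 (7.64 and 5.97) and Gabra4 (3.70 and 3.76) were lower, and Gabrd (0.604 and 0.466) and Gabrb1 (0.596 and 0.615) were lowest and did not separate.

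**Figure D1:**
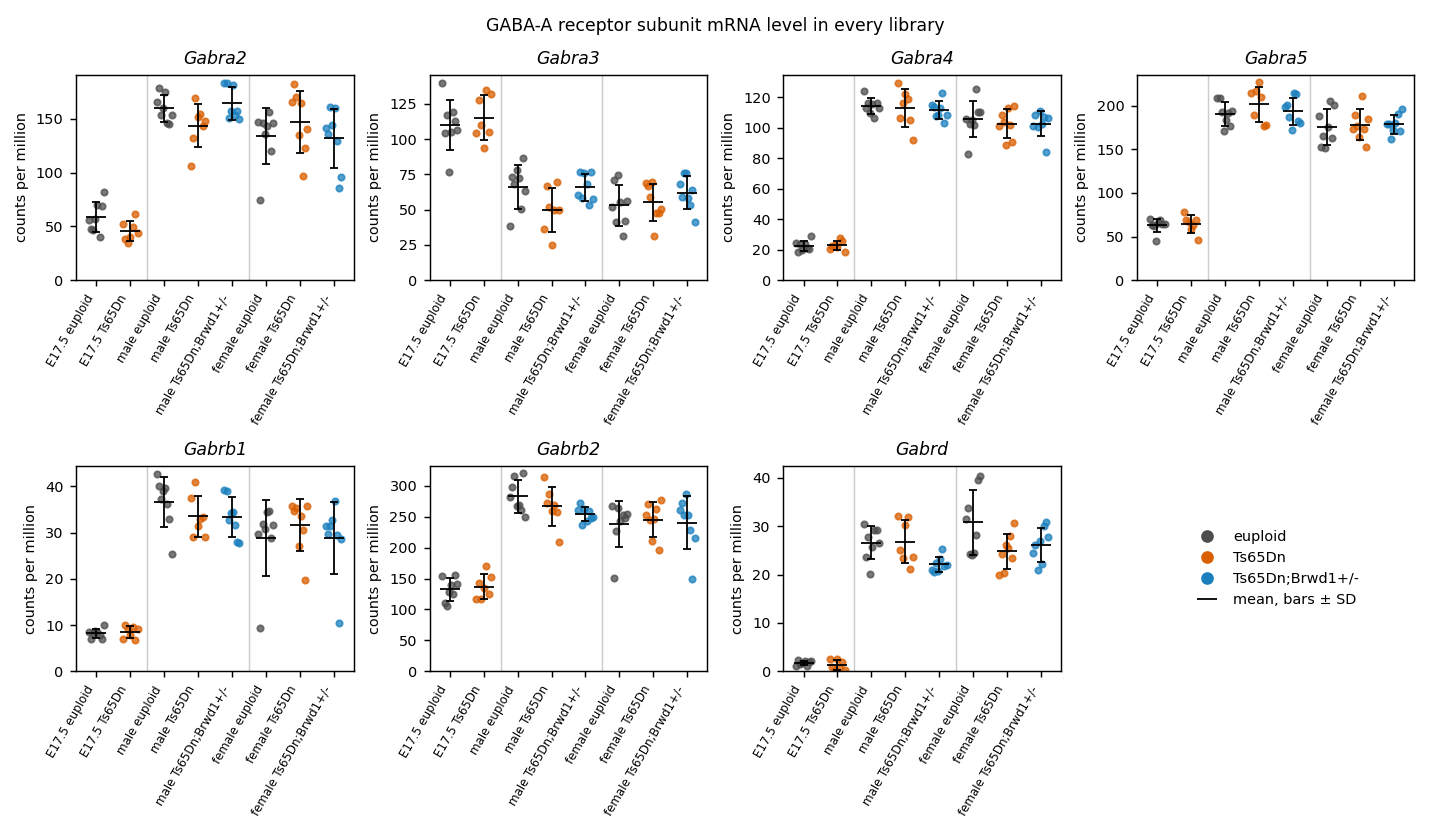
Level of each of the 7 subunit genes in all 62 libraries. Each point is 1 library, in CPM on a linear axis from 0, with 1 panel per gene, the 8 groups side by side, and the group mean with its SD as bars. Gabra3 is the only member whose E17.5 group means (110 and 115) lie above its adult group means (49.7 to 66.3), and libraries B125 and B176 are the low female points of Gabrb1 (9.31 and 10.4).

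The makeup of the 4 alpha members was not alike at the 2 ages. In E17.5 euploid forebrain Gabra3 made up 46.2% ± 3.19 (SD, n = 8) of their summed level per kb and Gabra5 34.9% ± 1.61, where Gabra2 made up 12.7% ± 3.19 and Gabra4 6.14% ± 0.81. In male euploid hippocampus Gabra5 made up 53.2% ± 3.05 (SD, n = 8), Gabra2 17.3% ± 0.96, Gabra4 15.6% ± 0.68 and Gabra3 13.99% ± 3.26. The adult groups differed little in this makeup, with means of 53.2% to 57.5% for Gabra5 and 10.8% to 14.4% for Gabra3. The tables were normalised separately, and they differ in tissue as well as age, so these levels stand side by side without a test.

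**Figure D2:**
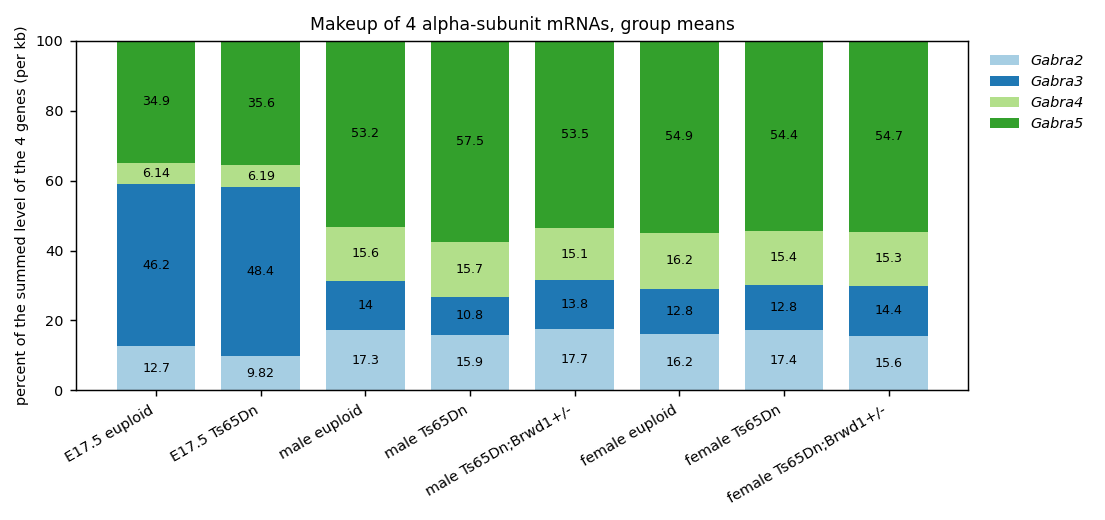
Share of Gabra2, Gabra3, Gabra4 and Gabra5 in their summed level (percent, from levels per kb of exon) for the 8 groups, as group means. Gabra3 takes 46.2% and 48.4% at E17.5 and 10.8% to 14.4% in the adult groups, and Gabra5 takes 34.9% and 35.6% at E17.5 and 53.2% to 57.5% in the adult groups.

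**Figure D3:**
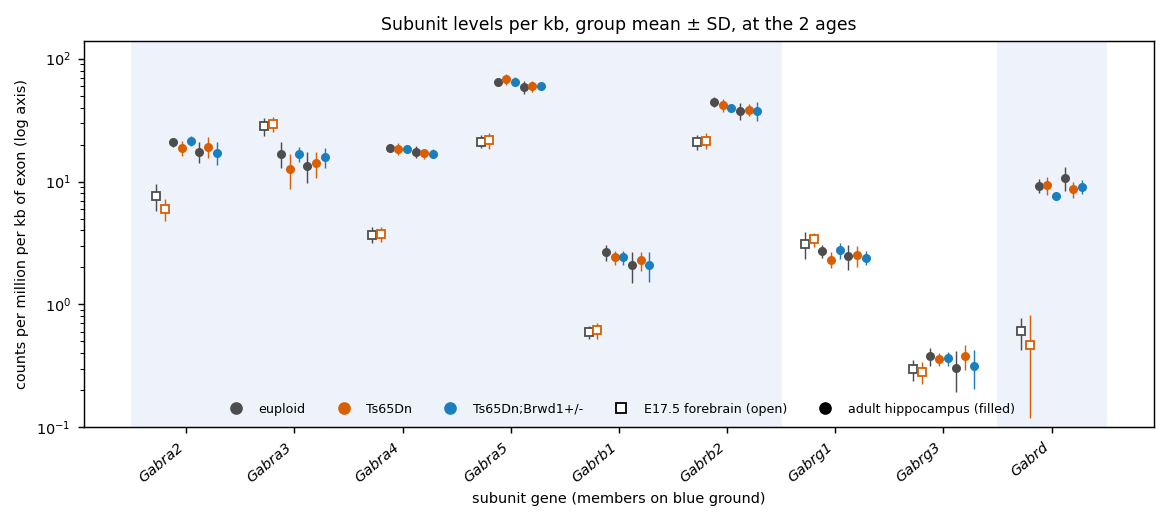
Level of 9 GABA-A subunit genes in CPM per kb of exon (log axis), as group means with SD, for E17.5 forebrain (open squares) and adult hippocampus (filled circles). Shaded genes are the 7 members. Gabrb1 lies between 0.596 and 0.615 at E17.5 and between 2.08 and 2.65 in the adult, and Gabra3 alone of the members is lower in the adult.

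At E17.5, no member differed between Ts65Dn and euploid forebrain at an adjusted p under 0.1 (edgeR's quasi-likelihood test with Benjamini-Hochberg adjustment), where 221 of 16395 genes, 1.35%, did. DESeq2 with its own size factors also called 0 of 7. The synaptic subunit Gabra2 came nearest and was the only member with an unadjusted p under 0.05, a level that 12.1% of all genes reached. Its level ran from 40.1 to 81.6 CPM in euploid libraries (median 56.5) and from 34.2 to 61.7 in Ts65Dn libraries (median 43.4). The groups overlapped, with 6 of 7 Ts65Dn libraries under the euploid median and 2 under the lowest euploid library. The difference was a log2 fold change of -0.36 (SE 0.15, adjusted p = 0.376), and -0.37 (SE 0.14, adjusted p = 0.295) with the further title number as a block. RUVr, the kind of correction the study used, removes factors of unwanted variation estimated from residuals. With 2 or 3 such factors in edgeR, the Gabra2 difference was -0.34 with an adjusted p of 0.0813 or 0.0904, while the number of genes called rose from 221 to 2700 or 3580.

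The other members lay close to 0 at this age. Gabra3 (log2 fold change 0.07), Gabra4 (0.02), Gabra5 (0.03), Gabrb1 (0.05) and Gabrb2 (0.04) had 95% intervals that reached no further than -0.19 and 0.29. Gabrd, the extrasynaptic delta subunit, was scarce, with 1.04 to 2.41 CPM in euploid (median 1.82) and 0.244 to 2.58 in Ts65Dn libraries (median 0.856). Of the Ts65Dn libraries 4 lay below all euploid libraries and 2 above all of them, and the 95% interval of the Gabrd difference was -1.21 to 0.52. Choroid plexus markers, which would come from tissue taken along with the forebrain, had a log2 fold change above 0 for 10 of 10 genes, 5 of them with an unadjusted p under 0.05 and none called (median log2 fold change 0.66). Their summed level was 54.5 to 1455 CPM in euploid and 692 to 1614 in Ts65Dn libraries, and its part in the Gabra2 difference was not tested.

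In adult male hippocampus, no member differed between Ts65Dn and euploid at an adjusted p under 0.1, where 0.795% of 16851 genes did, 21 of them lower and the rest higher, and DESeq2 called 0 members as well. Gabra3 and Gabra2 were the members with an unadjusted p under 0.05, the level of 8.91% of all genes. Gabra3 ranged from 38.6 to 86.7 CPM in euploid (median 70.3) and from 25.1 to 69.4 in Ts65Dn males (median 49.4). All 7 Ts65Dn libraries were under the euploid median, and 2 were under the lowest euploid library. The log2 fold change of Gabra3 was -0.42 (SE 0.18, adjusted p = 0.4996), and without the libraries that went against their labels it was -0.34 (SE 0.21, adjusted p = 0.553). Gabra2 was at 144.7 to 179 CPM in euploid (median 157) and 106 to 169 in Ts65Dn males (median 148), with a log2 fold change of -0.16 (SE 0.07, adjusted p = 0.555). Its lowest Ts65Dn library was B145, and the difference was -0.09 without B145 alone (adjusted p = 0.709) and -0.09 without all libraries that went against their labels (adjusted p = 0.615).

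Among the remaining members, the Ts65Dn and euploid males had overlapping levels. Gabra5, the most abundant subunit, had means of 202 ± 20.3 and 191 ± 13.7 CPM (SD), with a log2 fold change of 0.08 (95% interval -0.05 to 0.20). Gabra4 differed by -0.02, Gabrb1 by -0.13, Gabrb2 by -0.09 and Gabrd by 0.01, none with an unadjusted p under 0.05. Where RUVr factors were removed, the Gabra3 difference became -0.42 to -0.45 with adjusted p values of 0.0927, 0.00710 and 0.000651 for 1, 2 and 3 factors, and 324, 471 and 779 genes were called in all. Thus the direction and the size of the Gabra3 difference hardly moved, while its call depended on this step.

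Between male Ts65Dn;Brwd1+/- and male Ts65Dn mice, 0 of 16851 genes (0%) had an adjusted p under 0.1, and so did 0 members. The unadjusted p was under 0.05 for Gabra2, Gabra3 and Gabrd, and for 7.48% of all genes. Gabra3 lay between 53.5 and 76.8 CPM in Ts65Dn;Brwd1+/- males (median 64.3), where all 8 libraries were above the Ts65Dn median and 3 above the highest Ts65Dn library. Its log2 fold change was 0.41 (SE 0.18, adjusted p = 0.636), and 0.32 without the libraries that went against their labels. Gabra2 was at 149.8 to 183.6 CPM (median 157), again with all 8 above the Ts65Dn median, and its log2 fold change was 0.20 (SE 0.07, adjusted p = 0.626), or 0.13 without those libraries. This comparison shares the Ts65Dn animals with the one before it, so low Ts65Dn values enter both. Set against euploid males, the Ts65Dn;Brwd1+/- males differed by -0.01 for Gabra3 (95% interval -0.37 to 0.35) and by 0.04 for Gabra2 (-0.11 to 0.19).

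Gabrd, by contrast, had similar medians in euploid and Ts65Dn males and a lower median in Ts65Dn;Brwd1+/- males. It ranged from 20.2 to 30.5 CPM in euploid (median 27.1), from 21.2 to 32.2 in Ts65Dn (median 25.1) and from 20.5 to 25.2 in Ts65Dn;Brwd1+/- libraries (median 21.9). All 8 libraries of the last group were under the euploid median and 7 under the Ts65Dn median, although the ranges overlapped. The highest Ts65Dn library, B145, and the lowest Ts65Dn;Brwd1+/- library, B138, were among those that went against their labels. Gabrd differences without those libraries are not given here. The log2 fold change was -0.28 against Ts65Dn (SE 0.09, adjusted p = 0.626) and -0.27 against euploid (SE 0.09, adjusted p = 0.243). Against euploid, 97 of 16851 genes (0.576%) were called and 10.1% had an unadjusted p under 0.05, which Gabrb2 also had. Gabrb2 ranged from 249 to 321 CPM in euploid and from 236 to 272 in Ts65Dn;Brwd1+/- males, with medians of 275 and 254, and differed by -0.16 (SE 0.06, adjusted p = 0.372). With 3 RUVr factors in edgeR the adjusted p was 0.0382 for Gabrd and 0.00163 for Gabrb2 against euploid, and 848 genes were called in all.

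Markers of dentate granule cells, the cells in which delta and alpha4 receptors are best known, had a log2 fold change below 0 in male Ts65Dn;Brwd1+/- hippocampus for 10 of 10 genes against Ts65Dn (median log2 fold change -0.19) and for 10 of 10 against euploid (-0.22), with 0 called. Their summed level was 457 to 674 CPM in Ts65Dn;Brwd1+/-, 535 to 1019 in Ts65Dn and 559 to 848 in euploid males. Gabra4, the usual partner of delta, differed in the same comparisons by -0.02 (95% interval -0.13 to 0.09) and -0.04 (-0.14 to 0.07). In Ts65Dn;Brwd1+/- against Ts65Dn males, interneuron markers had a log2 fold change above 0 for 13 of 20 genes (median 0.15), with 0 called, and their summed level was 975 to 1141 CPM in Ts65Dn;Brwd1+/- and 1005 to 1127 in Ts65Dn males. The part of the granule cell, interneuron and choroid plexus content in the Gabrd, Gabra3 and Gabra2 values was not tested.

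In adult female hippocampus, 543 of 17146 genes (3.17%) differed between Ts65Dn and euploid at an adjusted p under 0.1, none of them a member, and DESeq2 also called 0 members. Gabrd was the only member with an unadjusted p under 0.05, the level of 15.4% of all genes. Its level was 24.1 to 40.4 CPM in euploid (median 29.8) and 19.9 to 30.7 in Ts65Dn females (median 24.8). Of the Ts65Dn libraries 7 of 8 were under the euploid median and 3 under the lowest euploid library. The log2 fold change was -0.32 (SE 0.12, adjusted p = 0.171). It was -0.25 (adjusted p = 0.342) without the libraries that went against their labels and -0.30 (adjusted p = 0.122) without B125 and B176. With all 6 adult groups in 1 fit it was -0.31 and passed (adjusted p = 0.0844), as it did with 1, 2 or 3 RUVr factors (adjusted p = 0.0975, 0.0269 and 0.0175). Dentate granule cell markers had a log2 fold change below 0 in Ts65Dn females for 8 of 10 genes (median -0.19), and 1 of them, C1ql2, was called higher.

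The mean Gabrb1 level of female groups was 28.9 ± 8.18 (euploid), 31.6 ± 5.66 (Ts65Dn) and 28.8 ± 7.87 CPM (Ts65Dn;Brwd1+/-), each with its SD. The Ts65Dn to euploid log2 fold change of Gabrb1 was 0.12 (95% interval -0.32 to 0.56), and -0.01 without B125 and B176. Gabra2 differed by 0.13 with them and 0.05 without them, and Gabrb2 by 0.03 and -0.04. Gabra3, Gabra4 and Gabra5 differed by 0.05, -0.05 and 0.02 with them and by 0.12, -0.09 and -0.0063 without them. Without the animals whose identifiers start with T the Gabra2 difference was 0.29 (adjusted p = 0.449).

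Between female Ts65Dn;Brwd1+/- and Ts65Dn mice 0 of 17146 genes (0%) were called, and 3.52% had an unadjusted p under 0.05, with 0 members among them. The member differences ran from -0.16 (Gabra2) to 0.18 (Gabra3). Against euploid females 0.729% of genes were called, 95 higher and 30 lower, and 11.2% had an unadjusted p under 0.05, with 0 members in either count. Gabrd lay at 20.98 to 30.9 CPM in Ts65Dn;Brwd1+/- females (median 26.5), with 6 of 8 libraries under the euploid median. Its log2 fold change against euploid was -0.24 (SE 0.12, adjusted p = 0.460), and -0.13 without the libraries that went against their labels. Fitted over both sexes with sex as a term, the Ts65Dn;Brwd1+/- against euploid difference of Gabrd was -0.25 (SE 0.08, adjusted p = 0.0846). Granule cell markers had a log2 fold change below 0 in this female comparison for 9 of 10 genes (median -0.36), with 0 called.

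**Figure D4:**
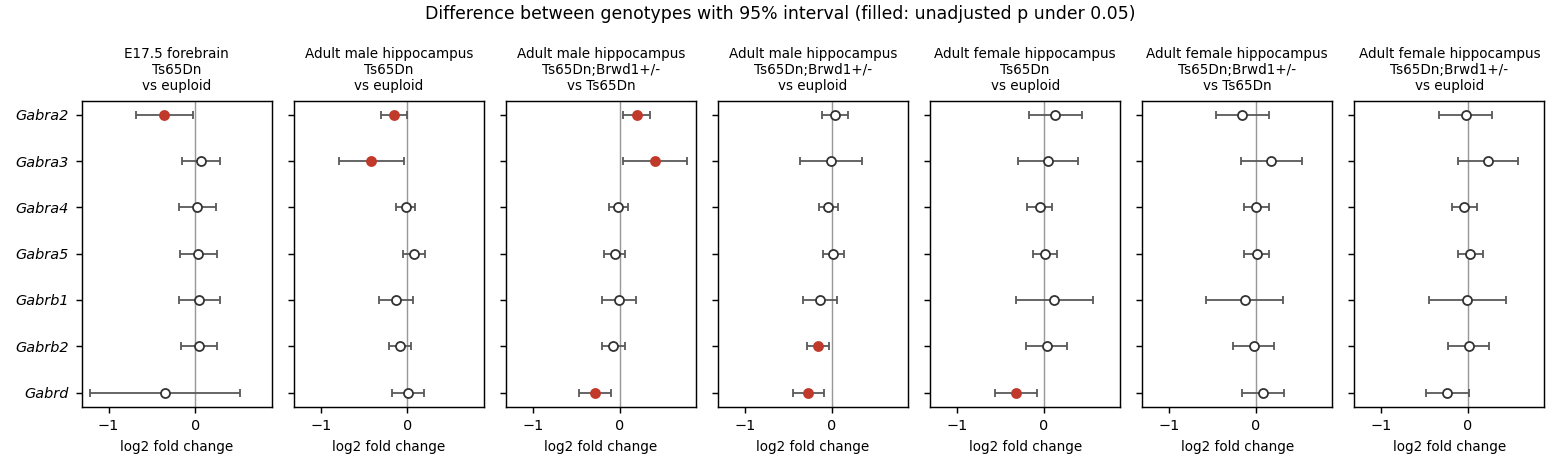
Log2 fold change of each member in the 7 comparisons between genotypes, with 95% intervals. Filled points have an unadjusted p under 0.05, and none passes an adjusted p of 0.1. The filled points are Gabra2 at E17.5 (-0.36), Gabra2 and Gabra3 in the first 2 male comparisons, Gabrd in both male comparisons of Ts65Dn;Brwd1+/- mice (-0.28 and -0.27) and in Ts65Dn females (-0.32), and Gabrb2 in Ts65Dn;Brwd1+/- males against euploid (-0.16).

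Whether the genotype differences themselves differed between the sexes was tested as an interaction in a fit over all 47 adult libraries. For Ts65Dn against euploid 0 of 17427 genes (0%) had an adjusted p under 0.1 and 11.1% an unadjusted p under 0.05, Gabrd among them. The female minus male difference in log2 fold change was -0.32 for Gabrd (SE 0.15, adjusted p = 0.422) and 0.47 for Gabra3 (SE 0.25, adjusted p = 0.497). For Ts65Dn;Brwd1+/- against Ts65Dn 0 genes (0%) were called and 3.73% had an unadjusted p under 0.05. Gabrd (0.36, SE 0.15) and Gabra2 (-0.36, SE 0.17) were among these, both with an adjusted p of 0.99985. A sex difference of these effects is therefore not shown by this fit. With both sexes in 1 fit and sex as a term, the Ts65Dn to euploid difference was 0.0026 for Gabra2, -0.17 for Gabra3 and -0.15 for Gabrd, and that of Ts65Dn;Brwd1+/- to Ts65Dn was 0.0091 for Gabra2, 0.28 for Gabra3 and -0.10 for Gabrd, none of them called. With 3 RUVr factors in edgeR, the first interaction was called for Gabra3 (0.50, adjusted p = 0.00352), Gabrb1 (0.32, adjusted p = 0.0247) and Gabrd (-0.30, adjusted p = 0.0863), among 2275 genes.

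Of 9 other GABA-A subunit genes, 4 passed the filter on low counts at E17.5, 6 in adult males and 5 in adult females. In any comparison between genotypes 0 were called, where 0% to 3.17% of all genes were. From 0 to 2 had an unadjusted p under 0.05, where 3.52% to 15.4% of all genes did. Gabrg1 had group means of 2.47 CPM per kb in female and 2.72 in male adult euploid libraries, and 3.11 in E17.5 euploid libraries. Gabrg3, Gabrr2, Gabrr1, Gabre, Gabrq, Gabra6, Gabrr3 and Gabrp all had means of at most 0.506 CPM per kb in euploid groups of both ages.

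Genes of the inhibitory postsynapse, such as the gephyrin scaffold and its partners, were tested for 23 of 23 genes with 0 called in any of the 7 comparisons between genotypes, and the same was true of 6 GABA-B receptor and effector genes and 20 interneuron markers. Over all genes, the share called in these comparisons was 0% to 3.17%. Of 10 genes for GABA synthesis, packaging and uptake, 2 rose at E17.5 in Ts65Dn, where 1.35% of all genes were called, and 0 were called in the adult. They were the GABA and betaine transporter Slc6a12 (log2 fold change 1.15, SE 0.22, adjusted p = 0.0125) and the GABA transporter Slc6a13 (0.80, SE 0.18, adjusted p = 0.0464). Both transporters are known from the meninges and other non-neuronal cells of the brain. The median over the 10 genes was 0.07, where it was -0.01 over all genes tested. The Slc6a13 call was lost without Ts65Dn replicate 7 (adjusted p = 0.106).

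Beyond genotype, some pairs of members varied together across the 47 adult libraries and others did not. The r of the 21 pairs ran from -0.60 (Gabra3 and Gabra5) to 0.83 (Gabrb1 and Gabrb2). It was 0.04 for Gabra2 and Gabra3 and -0.01 for Gabra3 and Gabrb2. Correlations were computed on log2 CPM after subtracting each group's mean, with p values from 100000 permutations within groups, adjusted over the 21 pairs of members. The 2 farthest libraries were those farthest from the median of the first gene of a pair, or of the member compared with markers or gene length. They can therefore differ between relations. Gabrb1 and Gabrb2 had a Pearson r of 0.83 (p = 2e-05, adjusted p = 0.00014) and a Spearman rho of 0.57 (p = 0.0002, adjusted p = 0.001). The r was 0.91 in females, 0.46 in males and 0.61 without the 2 farthest libraries, which were B125 and B176. Gabra4 and Gabra5, in contrast, kept an r of 0.70 (p = 1e-05, adjusted p = 0.0001, the smallest the permutations can give) at 0.66 without the 2 farthest libraries, with rho 0.73 (p = 1e-05, adjusted p = 0.0001), 0.74 in males and 0.67 in females. Gabra3 went the opposite way to Gabra5, with an r of -0.60 (p = 5e-05, adjusted p = 0.00021) and a rho of -0.54 (p = 0.00036, adjusted p = 0.0015), -0.51 without the 2 farthest libraries, -0.61 in males and -0.58 in females.

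**Figure D5:**
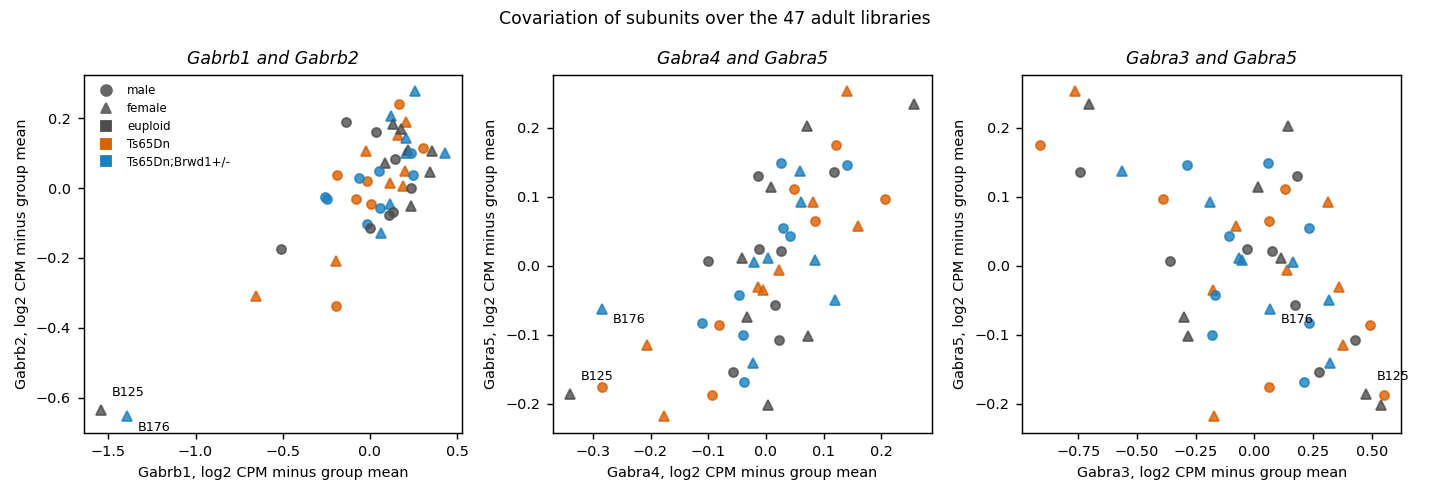
Covariation of 3 pairs of subunits over the 47 adult libraries, each axis giving log2 CPM minus the group mean. Circles are males, triangles females, and colours are genotypes. B125 and B176 lie alone at the lower left for Gabrb1 and Gabrb2 (r 0.83, and 0.61 without them), while Gabra4 rises with Gabra5 (r 0.70) and Gabra3 falls as Gabra5 rises (r -0.60) across the whole range.

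The members also varied with the marker genes of hippocampal cell types, for which 84 relations of 7 members with 12 measures were computed. Gabra3 was lower where dentate granule cell markers were higher, with an r of -0.80 (p = 1e-05, adjusted p = 0.00014) and a rho of -0.86 (p = 1e-05, adjusted p = 0.00017), -0.83 without the 2 farthest libraries, -0.78 in males and -0.83 in females. It was higher where interneuron markers were higher, with an r of 0.78 (p = 1e-05, adjusted p = 0.00014) and a rho of 0.81 (p = 1e-05, adjusted p = 0.00017), and 0.75 without the 2 farthest. Gabra4 and Gabra5 were higher where granule cell markers were higher, with r of 0.70 (p = 2e-05, adjusted p = 0.00019) and 0.64 (p = 2e-05, adjusted p = 0.00019), rho of 0.58 (p = 9e-05) and 0.62 (p = 4e-05), and r of 0.62 and 0.58 without the 2 farthest. Gabrd had an r of 0.27 with these markers (p = 0.13, adjusted p = 0.26) and a rho of 0.36 (p = 0.025, adjusted p = 0.075), with 0.57 in males and 0.10 in females. The highest r of Gabra5 was with CA1 and CA3 pyramidal cell markers, at 0.70 (p = 1e-05, adjusted p = 0.00014) with a rho of 0.69 (p = 1e-05, adjusted p = 0.00017), and 0.66 without the 2 farthest. With choroid plexus markers it was -0.63 (p = 5e-05, adjusted p = 0.00035) with a rho of -0.61 (p = 7e-05, adjusted p = 0.00065), and -0.61 without the 2 farthest. Gabrb2 was higher where excitatory neuron markers were higher, with an r of 0.84 (p = 1e-05, adjusted p = 0.00014) and a rho of 0.63 (p = 3e-05, adjusted p = 0.00036), and 0.67 without the 2 farthest. Gabra5 was lower where striatum markers were higher, with an r of -0.66 (p = 3e-05, adjusted p = 0.00023) and a rho of -0.67 (p = 1e-05, adjusted p = 0.00017), and -0.62 without the 2 farthest. The points share library preparation and the piece of tissue dissected, and the part of either in these relations was not tested.

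Several members varied with the level of long against short genes in a library, Gabrb1, which has the longest exon sequence of the 7 (13838 bp), among them. The median log2 level of the 10% of genes with the longest exon sequence (from 10271 bp) minus that of the 10% with the shortest (up to 1896 bp), each against the group, was -1.07 in B125 and -0.91 in B176, where it lay between -0.22 and 0.16 in the other 45 adult libraries. Gabrb1 stood at 9.31 CPM in B125 and 10.4 in B176, where the median was 31.1 in female euploid and 30.6 in female Ts65Dn;Brwd1+/- libraries. Over the 47 libraries the r between Gabrb1 and this length difference was 0.93 (p = 1e-05, adjusted p = 0.00014) with a rho of 0.73 (p = 2e-05, adjusted p = 0.00028), and 0.75 without the 2 farthest. For Gabrb2 (6360 bp) the r was 0.83 (p = 2e-05, adjusted p = 0.00019) with a rho of 0.54 (p = 0.00047, adjusted p = 0.0028), and 0.61 without the 2 farthest. For Gabra4 (6083 bp) the r was 0.73 (p = 1e-05, adjusted p = 0.00014) with a rho of 0.61 (p = 1e-05, adjusted p = 0.00017). The r of Gabra4 was 0.65 without its 2 farthest and 0.63 without B125 and B176. For Gabra2 (7640 bp) the r was 0.64 (p = 0.0042, adjusted p = 0.018) with a rho of 0.43 (p = 0.0049, adjusted p = 0.021). It was 0.25 without B125 and B176, so the Gabra2 relation rests on those libraries. Gabra5 (2974 bp) also rose with the length difference, with an r of 0.39 and a rho of 0.46, above the rho of Gabra2. Its r was 0.45 without B125 and B176. Gabra3 (3924 bp) went the opposite way, with an r of -0.28 and a rho of -0.37. For Gabrd (2875 bp) the r was -0.13 and the rho 0.03. A positive relation was thus not confined to the members with the longest exon sequence. B125 and B176 had totals of 55.9 and 58.7 M counts.

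The genes whose adult pattern was most like each member were found by the same group-centred Pearson correlation over 47 libraries among 17427 genes. For Gabra3 they were Adgra1, Tacr3 and Impact (r 0.91 each), for Gabrb1 Dnajb14, Xkr4 and Slc9a7 (0.97, 0.97 and 0.96), and for Gabrb2 Snx13 and the sodium channels Scn1a and Scn2a (0.94, 0.93 and 0.93). Gria3 and Abi2 (0.88 each) were among the 3 genes most like Gabra4. Gabra2 was most like Tnfaip8l3, Chrna7 and Cbx5 (0.82, 0.80 and 0.80), Gabra5 like Cdc40, Cpne4 and Ptk2b (0.82, 0.82 and 0.80), and Gabrd like Zfp653, Car7 and Sh3glb2 (0.80, 0.78 and 0.75). These are the highest of 17426 values for each member and are given as a description. The median r over all genes was between -0.04 and 0.01 for every member.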

How the data were processed

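The members, gene lists and tests were chosen with earlier results of these data known. Bulk poly(A) RNA was sequenced as single, unstranded reads from 62 libraries, with reads of 2 flow cells joined per library. The authors aligned reads with HISAT2 (version 2.1.0 in the submitters' processing notes) to mm10 and counted them with featureCounts 2.0.1. The notes also name mm9 and DESeq2 2.11.40.6. The deposited tables hold whole-number counts per Entrez gene, 27179 genes each, of which 25275 were given a symbol from RefSeq. Genes without one held 0.3% of adult and 0.805% of E17.5 counts.

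Here, edgeR 4.0.16 (R 4.3.3) was run on the counts with TMM scaling, its default expression filter and robust quasi-likelihood tests, separately for E17.5, adult males and adult females, and over all adult groups for sex interactions. Adjusted p values are Benjamini-Hochberg values over all genes tested, with a threshold of 0.1. Levels are CPM, on the log2 scale with a prior count of 0.5, and lengths are merged exons of GENCODE annotation on GRCm38. Named genes were all members, other list genes with an adjusted p under 0.1, every other subunit by its level, and the 3 genes most like each member. Depth was 14.9 to 62.6 M counts (E17.5) and 33.6 to 137.1 M (adult). Alternatives were DESeq2 1.42.0, upper-quartile scaling, 1 to 3 RUVr factors, other count filters, a threshold of 0.05, pooled sexes, all groups in 1 fit, blocks, and libraries left out. No pair of libraries in a group agreed within sampling noise (chi-square per degree of freedom at least 10.1). On simulated data for male Ts65Dn against euploid, over 16851 genes, the test recovered 44.8% of 1.25-fold, 71.6% of 1.5-fold and 89.4% of 2-fold changes, with 16 false among 153 calls. The simulated counts were drawn independently for each gene, with each change in every male Ts65Dn library, B145 among them. Recovery in the real libraries may therefore differ. Figures were drawn with matplotlib 3.10.9. Some genes that these rules would name are not reported here. The promoter sequence of Gabrd and the subunit proteins were not analysed here.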

Additional observations from a re-analysis of the deposited data

Results flagged for a closer look

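In groups of 7 or 8 libraries, 8 of 56 combinations of member and group had 1 library further from the rest than Dixon's 95% limit, where chance gives about 1 in 20. In each the distant library was the lowest. Female euploid B125 was low for Gabra2 (74.5 CPM), Gabrb1 (9.31) and Gabrb2 (151). Female Ts65Dn;Brwd1+/- B176 was low for Gabra4 (84.2), Gabrb1 (10.4) and Gabrb2 (149.98). Female Ts65Dn T141 was low for Gabrb1 (19.7), and E17.5 euploid replicate 4 for Gabra5 (45.4). B125, B176 and T141 were also the 3 adult libraries with the lowest level of long against short genes, at -1.07, -0.91 and -0.22 on the log2 scale, and the part of that difference in the subunit values was not tested.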

How the results depend on the processing

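No member was called at an adjusted p under 0.1 in any of the 9 comparisons by edgeR, and 0 were called when any 1 library was left out (0 to 0 members in each comparison), nor with DESeq2 alone, upper-quartile scaling, other filters, without the libraries that went against their labels, or without B125 and B176 (a choice made after seeing the data). The replicate block at E17.5 also gave 0 members, and lost the Slc6a13 call (adjusted p = 0.149). Its numbers did not pair the embryos, since the 7 pairs had correlations of -0.20 to 0.30 with 2 above 0.1 and 1 embryo best with its own number. No adult pairing was possible because the groups share no replicate numbers.

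The number of members called moved with RUVr, given here for 1, 2 and 3 factors in edgeR and for DESeq2 with 3. It was 0, 1, 1 and 1 at E17.5, then 1, 1, 2 and 2 (Ts65Dn against euploid), 2, 2, 2 and 3 (Ts65Dn;Brwd1+/- against Ts65Dn) and 1, 1, 2 and 2 (Ts65Dn;Brwd1+/- against euploid) in males. In females it was 1, 2, 2 and 2, then 0, 0, 0 and 1, then 0, 0, 2 and 2 in the same order. It was 0, 2, 3 and 3 for the sex interaction of Ts65Dn against euploid. All genes called rose too, for example from 543 to 2385, 3438, 4012 and 4363 in Ts65Dn females. Both sexes together gave 1 member, Gabrd, for Ts65Dn;Brwd1+/- against euploid, and all 6 groups in 1 fit gave 1, Gabrd, for Ts65Dn against euploid females. The cause was not tested. The male Gabra2 difference between Ts65Dn and euploid turned to 0.0026 with both sexes together. Of 796 other member values in alternative settings, 706 kept direction and side of the threshold, 43 changed sign (all between -0.17 and 0.11) and 47 became called. Depth limits Gabrd at E17.5, with 5 to 150 counts per library.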
